A study of Mus musculus with 12 samples.

Results

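The replication-dependent histone genes were described across 12 whole mouse embryos of 3 Mfsd12 genotypes. Members were the rows of the deposited count table named H2ac, H2bc, H3c or H4c followed by a number, which gave 62 of 41079 genes: 18 H2A, 19 H2B, 12 H3 and 13 H4 genes. The selection also allowed the linker histone names H1-1 to H1-6, but the table names those 6 genes H1f1 to H1f6, so no linker gene was a member; the 6 rows are given beside the members as related genes. On the GRCm39 build, 48 members lay on chromosome 13, 10 on chromosome 3, 3 on chromosome 11 and 1 on chromosome 6.

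The embryos came from timed matings between mice heterozygous for Mfsd12, a gene for a lysosomal and melanosomal membrane protein needed for cysteine import into these organelles. They were collected between 10.0 and 11.0 days post fertilization. Per the labels, 4 embryos were Mfsd12 knockout, 4 heterozygous and 4 wild-type, each library being 1 whole embryo with every tissue mixed. The labels give neither strain nor allele nor sex, and the embryo numbers used here only name an embryo and pair nothing. The sample titles also carry a number (4, 4.1b, 14, 15 or 18) whose meaning is not stated in the sources used here: wild-type 1 and 2, heterozygous 1 and knockout 3 carry 18; wild-type 3 and 4, heterozygous 4 and knockout 2 carry 4; heterozygous 2 and knockout 1 carry 14; heterozygous 3 carries 4.1b and knockout 4 carries 15.

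Replication-dependent histone genes supply the H2A, H2B, H3 and H4 that package newly made DNA, and they are transcribed mainly in S phase. Their mRNAs are the main class of metazoan mRNA that ends in a conserved stem-loop in place of a poly(A) tail; the stem-loop is bound by SLBP, and the 3' end is cut with the help of the U7 small nuclear RNA. Some members can also make polyadenylated transcripts that run past the stem-loop, chiefly in differentiated cells. The libraries were made with a strand-marking mRNA kit from 325 ng of total RNA per embryo; kits of this kind capture poly(A) tails, so an untailed histone mRNA is read only as far as it escapes that selection.

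The stem-loop is shown first because it is what sets these mRNAs apart. Of the 62 members, 56 were matched to a GENCODE M21 gene model (GRCm38), and 36 of these held the 16-base pattern GGNNCTTTNNAGNNCC, 2 stem arms of 6 bases around a 4-base loop. The pattern lay in the last 100 bases of the model in 21 of 56 members (37.5%) and in 1 of 21834 other protein-coding genes (0.00458%). The remaining 20 matched members had no match in their models; no match says only that these letters are not in that model. Capitals mark the pattern and lower case the 6 bases on each side, 5′ to 3′:
H2ac8: aacaaaGGCTCTTTTCAGAGCCattcac
H2bc14: cacaaaGGCTCTTTTCAGAGCCactaag
H2bc12: accaaaGGCTCTTTTAAGAGCCactaaa
H3c3: aaaaaaGGCTCTTTTAAGAGCCacctaa
H4c6: ctcaaaGGCCCTTTTCAGGGCCacccac
H4c9: cttaaaGGCCCTTTTTAGGGCCaccaca
H4c2: acaaaaGGTCCTTTTCAGGACCactcac

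The stem differed between histone types. The 26 H2A, H2B and H3 members with a match shared 3 core sequences, led by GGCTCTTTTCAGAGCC in 20 members, and the 10 H4 members used 3 others, led by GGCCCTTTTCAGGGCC in 6. No core was found in both H4 and another type. From the commonest core of the other types to that of H4, the differences were T4C and A13G, counted from 1 at the 5′ base of the core, a change on both arms of the stem. In 15 members the gene model ran more than 100 bases past the stem-loop: that of H4c9 ended 330 bases after it and that of H4c4 770 bases after it. In H4c6 33 bases followed, and in H2bc14 46 bases.

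Promoters also differed between types. RefSeq promoter entries (GRCm38.p6, 250 bases before to 50 after the start) were found for 52 of 62 members. The motif CCAAT, searched on both strands, was in all 17 H2A, 14 H2B and 10 H3 promoters but in 3 of 11 H4 promoters (27.3%), against 37.8% of 26967 other promoters. The octamer ATTTGCAT, known from H2B promoters, was in 42.9% of H2B and 35.3% of H2A promoters, in none of the H3 or H4 promoters, and in 1.71% of the others. H2A and H2B genes often lie head to head and then share the stretch between their starts. TATAAA was in 57.7% of member promoters and 14.1% of the others. AAACACA was in 7.69% of member promoters, close to the 7.12% of the others, and in 5 of 6 H1 promoters. The last 150 bases before the start are shown for H2bc18, the member with the highest rank correlation with the ribosomal RNA locus rows below, and for H4c9, the most abundant H4 gene, with the motifs in capitals. H2bc18 has CCAAT and ATTTGCAT at chr3:96269550-96269699 (plus strand), and H4c9 has TATAAA at chr13:22041363-22041512 (minus strand):
H2bc18: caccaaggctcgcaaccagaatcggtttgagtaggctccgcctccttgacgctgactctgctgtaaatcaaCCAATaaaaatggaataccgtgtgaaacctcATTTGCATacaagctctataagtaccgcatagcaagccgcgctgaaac
H4c9: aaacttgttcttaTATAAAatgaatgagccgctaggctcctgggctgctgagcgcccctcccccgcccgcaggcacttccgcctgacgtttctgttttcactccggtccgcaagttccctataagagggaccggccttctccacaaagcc

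Histone reads were scarce in every library. Totals were 53133084 to 67977990 counted reads, and the 62 members together took between 0.00363% (heterozygous 3) and 0.0104% (heterozygous 2) of them; the member reads ranged from 1960 in heterozygous 3 to 5739 in wild-type 1. Levels below are CPM, counts per 1000000 of the TMM-scaled library total. Only 10 members reached a mean of 1 CPM, 40 lay under 0.5 CPM, and H2ac1 had 0 counts in all 12 embryos. As a yardstick, the 11 polyadenylated histone variant genes on a fixed list, which include H3f3a and H3f3b for H3.3, summed to between 2274 and 4101 CPM, against 34.9 to 118 CPM for the members. A fractional count marks a read shared between places: 56 members had a count that was not whole in at least 1 embryo, and 52.2% of member values were not whole, against 21.1% of values over all rows with counts. H2bc23 and H2bc24 differed by 1.79% of their reads over the embryos and cannot be told apart. H2ac25 overlaps Trim17, and a read in 2 genes was counted as a fraction for each.

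H2B genes supplied most histone reads. Their share of member reads had a median of 66.2% over the embryos, followed by 19.9% for H4, 10.2% for H2A and 3.91% for H3. The 5 highest members, H2bc21, H4c9, H2bc27, H2bc4 and H2ac25, held between 28.9% and 73.5% of member reads, with a median of 65.3%. The lowest share was in the library with the highest ribosomal RNA share, described below. Per kilobase of annotated exon, the mean levels over the embryos put H4c9 first at 20.2 CPM per kb, then H2bc27 at 17.3, H2ac25 at 8.08, H2bc18 at 5.28 and H2bc21 at 4.97. Both H2bc21 (2623 bases) and H2bc4 (2303 bases) have long models and are among the members described elsewhere with polyadenylated transcripts.

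Head-to-head H2A and H2B neighbours were unequal. There were 13 such pairs with starts within 500 bases of each other, and in 12 the H2B gene had the higher mean level per kilobase. In 1 of these 12 both genes were near 0: H2ac1 had no reads, and H2bc1, at 0.0182 CPM per kb, was above it in 6 of 12 embryos. H2bc12 stood at 3.14 CPM per kb and its partner H2ac12 at 0.343, with H2bc12 higher in 12 of 12 embryos. H2bc11 stood at 2.57 and H2ac11 at 0.486, again higher in 12 of 12. The exception was on chromosome 11, where H2ac25, which overlaps Trim17, had 8.08 and H2bc26 had 0.106 CPM per kb. Reads shared between near-identical H2A genes, or between H2ac25 and Trim17, bear on these levels, and their part was not tested.

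The targeted gene followed the labels in rank of the means. Mfsd12 averaged 11.9 ± 3.23 CPM in wild-type, 5.84 ± 2.57 in heterozygous and 2.97 ± 0.543 in knockout embryos (SD, n = 4 each). Knockout embryos lay between 2.31 and 3.57 CPM and wild-type embryos between 9.37 and 16.2, without overlap; heterozygous 2, at 2.57 CPM, lay within the knockout range. The log2 fold change of knockout against wild-type was -2.01 ± 0.33 (SE), with an adjusted p of 0.385 in edgeR's quasi-likelihood test.

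Summed over the members, histone levels did not separate the genotypes. The wild-type embryos had 98.8, 72.4, 34.9 and 42.6 CPM, the heterozygous embryos 81.0, 118, 35.8 and 42.5 CPM, and the knockout embryos 45.9, 46.4, 56.1 and 72.9 CPM. The wild-type and heterozygous groups each held a pair of high and a pair of low embryos, and every knockout embryo lay between the extremes of both groups. The means were 62.2 ± 29.3, 69.3 ± 38.1 and 55.3 ± 12.6 CPM (SD, n = 4). By type, H2A averaged 6.64 ± 3.09, 7.32 ± 5.11 and 5.15 ± 0.543 CPM in wild-type, heterozygous and knockout embryos, and H2B 39.9 ± 16.97, 44.1 ± 20.9 and 34.1 ± 6.77 CPM. H4 averaged 13.6 ± 8.32, 15.4 ± 11.2 and 12.5 ± 5.35 CPM in the same order. H3 was the type with its highest mean in knockouts, at 3.66 ± 2.22 against 2.02 ± 1.23 and 2.497 ± 1.28 CPM, and its highest value, 6.89 CPM, came from knockout 4. All of these ranges overlapped.

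**Figure D1:**
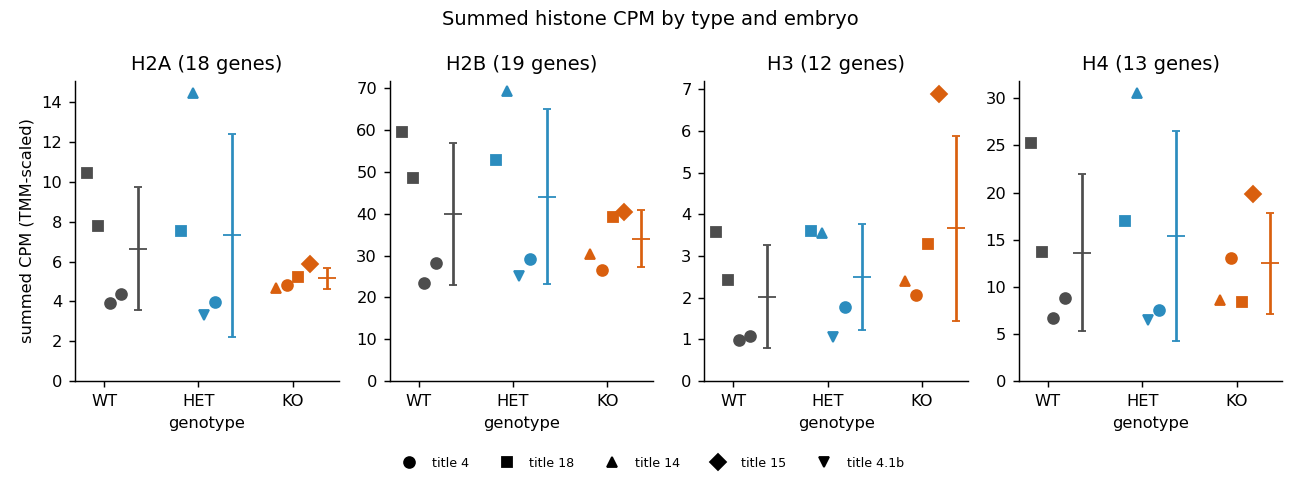
Summed CPM (vertical axis, from 0) of the H2A, H2B, H3 and H4 members in each embryo, by genotype; marker shapes give the title number, and the bar at the right of each group is the mean ± SD of 4 embryos. Embryos of title number 18 (squares) lie above those of title number 4 (circles) for H2A, H2B and H3, and the genotypes overlap in every panel.

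Gene by gene, no member was called between genotypes, and neither was any other gene, Mfsd12 included. In edgeR's quasi-likelihood test over 20771 genes, with Benjamini-Hochberg adjustment and a threshold of 0.05, 0 of the 50 members tested were called in each of the 3 genotype comparisons, and the share called among all genes was 0 in each. DESeq2 and limma's voom also called 0 members in each. At an unadjusted p under 0.05, the counts were 2 of 50 for knockout against wild-type, where 8.33% of all genes passed, 4 of 50 for knockout against heterozygous (7.4% of all genes) and 1 of 50 for heterozygous against wild-type (1.01% of all genes). The 12 members not tested had too few reads: 9 H2A genes, H2bc1, H3c13 and H3c14, none above 0.337 CPM in any embryo. Over all genes, DESeq2 called 122, 74 and 4 in the same order of comparisons.

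H2bc18 had the smallest p of the members for knockout against wild-type. It encodes an H2B on chromosome 3 (GRCm39 chr3:96177016-96177508, plus strand, a single exon of 493 bases). Its levels were 1.14, 2.14, 0.449 and 1.46 CPM in the wild-type embryos, 2.42, 0.761, 0.621 and 1.05 in the heterozygous embryos, and 6.08, 1.39, 2.504 and 11.2 in the knockout embryos. Knockouts 1 and 4 were far above every other embryo, while knockout 2 lay within the wild-type range. The log2 fold change was 2.03 ± 0.66 (SE) with an adjusted p of 0.538 by edgeR.

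H2bc27, an H2B gene on chromosome 11 (GRCm39 chr11:58839737-58840198, plus strand), ran the other way. It stood at 18.1, 15.6, 4.36 and 4.05 CPM in wild-type, 16.3, 10.8, 3.80 and 6.03 in heterozygous and 3.60, 4.03, 7.59 and 1.78 in knockout embryos. The high values were those of title number 18 and heterozygous 2, and the groups overlapped. The log2 fold change of knockout against wild-type was -1.31 ± 0.59 (SE), with an adjusted p of 0.598 by edgeR.

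Complete separation of 2 genotypes was about as common in members as in all genes. For H3c8, every knockout embryo (0.183 to 0.776 CPM) lay above every wild-type embryo (0.122 to 0.172 CPM); this was 1 of 50 members, against 1.6% of all genes. For H2bc26, every heterozygous embryo lay above every knockout embryo, again 1 of 50, against 1.93% of all genes. H3c8 and H2bc26 were singled out here after their values were seen.

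Ribosomal RNA, which also lacks a poly(A) tail, was taken as a measure of how much untailed RNA each library held. Whether the rows used track that amount was not tested, and their share of reads is called the ribosomal RNA share below. The rows first chosen for it matched 54 genes of 5S ribosomal RNA alone, with 2.96e-05% to 0.00153% of counted reads. The low end of this range rests on few reads, so the 5S share is noisy there. A second measure was chosen after seeing the data: the rows Gm26917 and AY036118 on chromosome 17, which overlap each other beside the copy of 18S ribosomal RNA that RefSeq names Rn18s-rs5. These locus rows took 1.47%, 2.27%, 0.825% and 1.60% of counted reads in the wild-type embryos, 2.05%, 0.968%, 0.976% and 1.10% in the heterozygous embryos, and 3.08%, 1.56%, 1.35% and 7.38% in the knockout embryos. Knockouts 4 and 1 were the highest of the 12 on both measures. The mitochondrial ribosomal RNAs mt-Rnr1 and mt-Rnr2 together were also highest in these embryos, at 0.383% and 0.150% of reads.

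The summed histone level followed the ribosomal RNA share weakly. Over the 12 embryos, on log2 scales, Pearson's r was 0.27 and Spearman's rho 0.31 with the locus rows, and 0.30 and 0.43 with the 5S rows; these are descriptions, since both quantities come from the same libraries and totals. Without the 2 embryos farthest from the median, knockouts 1 and 4, r with the locus rows was 0.42. For the 5S rows, where the farthest were heterozygous 3 and knockout 4, it fell to 0.064 without them, so that relation rests on these embryos. Centred on each genotype r with the locus rows was 0.42, and centred on the title number, in the 10 embryos whose number occurs more than once, it was -0.44. Single title numbers hold at most 4 embryos, too few for a value of their own. By type, r with the locus rows was 0.67 for H3, 0.33 for H4, 0.19 for H2B and 0.09 for H2A. The value for H3 fell to 0.48 without the same 2 embryos. For the 6 linker H1 genes it was 0.68, and for 12 other RNAs without a usual poly(A) tail, such as Rn7sk and Rmrp, 0.84. Centred on the title number as above, r became -0.11 for H3, -0.29 for H4, -0.48 for H2B and -0.49 for H2A. For the linker genes it became 0.07, and for the other untailed RNAs 0.62.

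Members were also summed by the exon length in the annotation of the deposited counts, which is not that of the GENCODE models above. The 6 members over 1000 bases had r of -0.30 with the locus rows, and the 56 shorter ones 0.43. The sum of the long members rests largely on H2bc21, the most abundant member, and H2bc4, so it does not speak for length as such. Without knockouts 1 and 4 these became 0.12 and 0.51, so the negative sign for the long members rests on those libraries. In knockout 4, where the locus rows were highest, the long members summed to 14.9 CPM, the second lowest of the 12 embryos, and the short ones to 58.0, the third highest.

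A slope was then fitted for every gene: the change in log2 level for each doubling of the ribosomal RNA share, with a mean per genotype, by edgeR's quasi-likelihood test over the same 20771 genes. With the 5S share, 0 members and 0 genes were called (0% of all genes). A positive slope at an unadjusted p under 0.05 was found in 15 of 50 members, against 2.81% of all genes. DESeq2 called 1 member and voom 0. The shares of all genes that these methods called are not given here, so their counts do not speak for the members in particular. With the locus share, 1 of 50 members was called, against 0.0337% of all genes, and 10 of 50 had a positive slope at an unadjusted p under 0.05, against 2.07% of all genes. Slopes were positive in 47 of 50 members with the 5S share (median 0.41, against -0.00 over all genes) and in 45 of 50 with the locus share (median 0.54, against -0.01). Because a filter on low counts favours members with a high embryo, the fit was repeated without it: 56 and 54 of 61 members were positive, with medians of 0.38 and 0.54. In the main fit, the members with a positive slope at an unadjusted p under 0.05 were of the H2B, H3 and H4 types. None of the 9 H2A members tested was among them, where 2.81% (5S) and 2.07% (locus) of all genes were. Yet 8 of 9 H2A slopes were positive on each share. Their medians were 0.29 (5S) and 0.43 (locus), above those of H2B at 0.24 and 0.22, so the types were not set apart by this count.

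The slopes changed sign with the terms of the fit. Without a genotype term, 44 and 39 of 50 members had a positive slope on the 5S and locus shares, with medians of 0.27 and 0.42. With the title number in place of genotype, 23 of 50 members had a positive slope on the 5S share and 15 of 50 on the locus share, with medians of -0.02 and -0.27. In that fit knockout 4 and heterozygous 3, each alone in its title number, had no part in the slope. Knockout 4 held the highest share on both measures, at 7.38% for the locus rows, so the fit also lost that extreme. The ribosomal RNA share and the title number cannot be fully told apart in these 12 embryos.

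**Figure D2:**
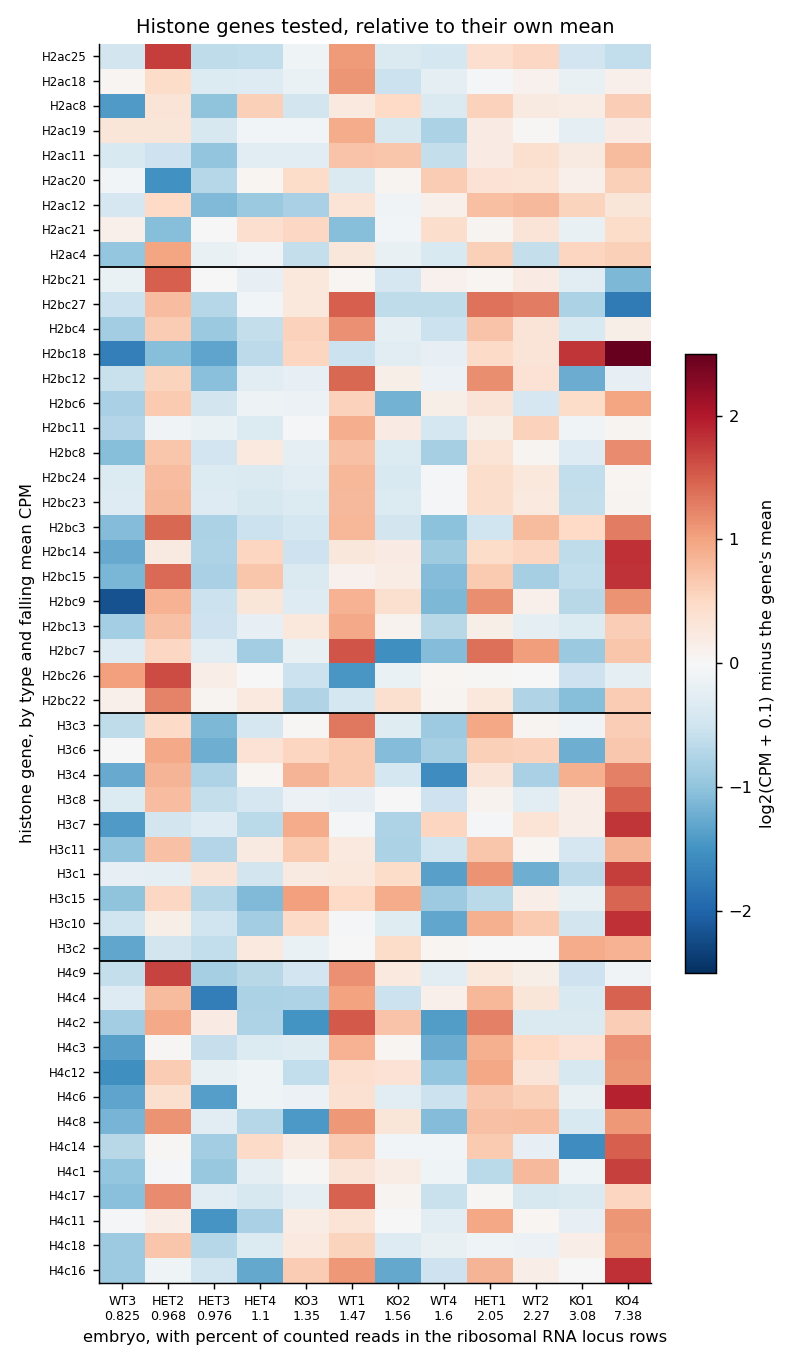
The 50 members tested (rows, by type and falling mean CPM) in the 12 embryos (columns, ordered by the percent of counted reads in the ribosomal RNA locus rows, printed under each name), as log2(CPM + 0.1) minus the gene's own mean. Knockout 4, at 7.38%, is high for most H3 and H4 genes and low for H2bc21 and H2bc27, and heterozygous 2, at 0.968%, is also high for many genes.

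H2bc18 was the member called. Its slope on the locus share was 1.24 ± 0.18 (SE), with an adjusted p of 0.041 by edgeR, and its slope on the 5S share was 0.69 ± 0.14, with an adjusted p of 0.254. Across the 12 embryos its rank correlation with the locus share was 0.88, the highest of the 50 members; with the 5S share it was 0.76, below H2ac11 at 0.89 and H4c3 at 0.84. Knockouts 4 and 1 were the highest and second highest in both H2bc18 level and locus share. With the title number in place of genotype the slope was 1.47, with an adjusted p of 0.328. Knockout 4 and heterozygous 3, each alone in its title number, had no part in that slope. The call of the main fit was lost on leaving out any 1 of the 12 embryos, with adjusted p between 0.0704 and 0.377 and slopes between 1.15 and 1.52.

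The H4 genes had the largest median slope of the types, 0.75 over 13 genes. H4c6 had the largest H4 slope, 1.13 ± 0.33 (adjusted p = 0.871, edgeR), and rose from 0.0731 CPM in heterozygous 3 to 1.60 in knockout 4; the other 3 knockouts lay between 0.269 and 0.305 CPM. H4c4, the second H4 gene by level, had 2.85 CPM in knockout 4 and 0.519 to 0.713 CPM in the other knockouts. H4c16, on chromosome 6, had a slope of 1.12 ± 0.57. H4c9, the highest H4 gene, had none to speak of, at -0.00 ± 0.33. It stood at 15.6, 7.74, 4.595 and 5.802 CPM in wild-type, 8.42, 22.9, 3.90 and 4.31 in heterozygous and 4.86, 8.26, 5.01 and 6.54 in knockout embryos, and its highest embryo, heterozygous 2, had the second lowest locus share.

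All 10 H3 members tested had positive slopes, with a median of 0.54. H3c10 had the largest, 1.001 ± 0.45, and H3c15 the smallest. The most abundant H3 genes, H3c3, H3c6 and H3c4, averaged 0.552, 0.262 and 0.251 CPM, so that single embryos rest on few reads: the highest count of H3c10 in any embryo was 50.7. Knockout 4 held the highest value of 9 of 12 H3 members and 9 of 13 H4 members, but of 5 of 19 H2B and 5 of 18 H2A members. The share of all genes that were highest in knockout 4 is not given here, so these counts cannot be set against it.

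**Figure D3:**
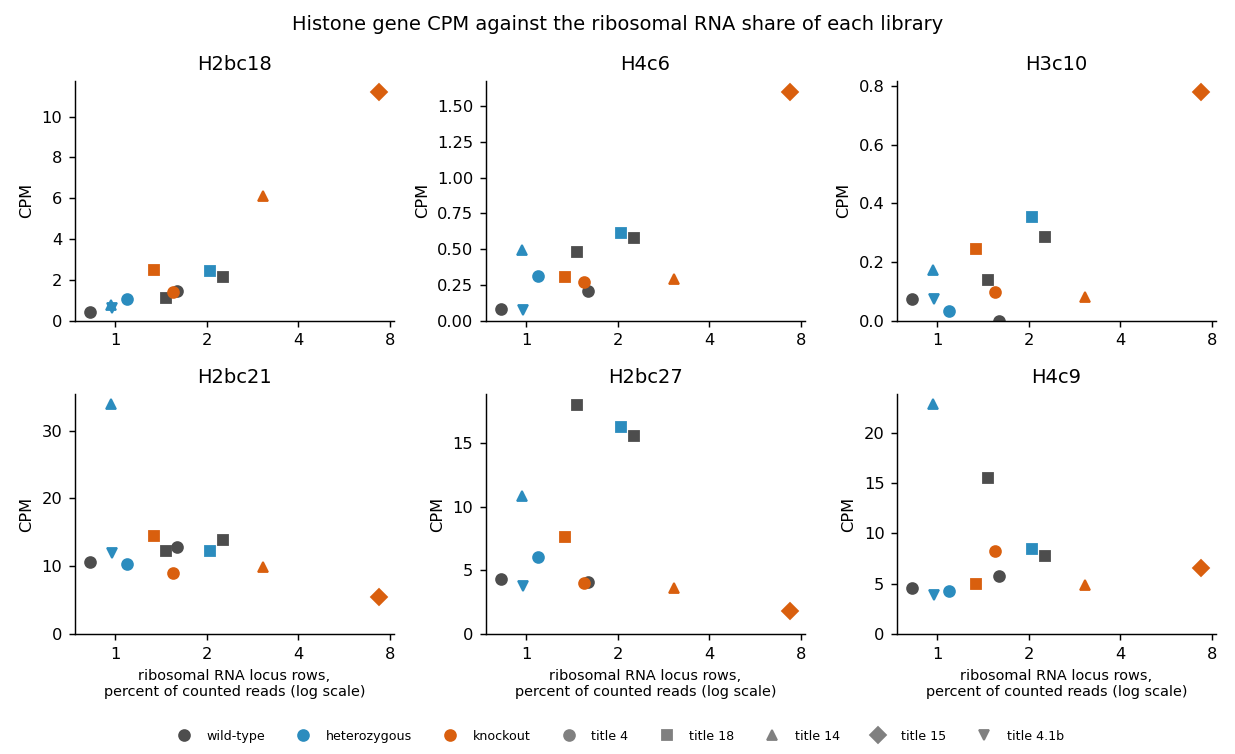
CPM (vertical axes, from 0) of 6 members against the percent of counted reads in the ribosomal RNA locus rows (horizontal axes, log scale) in 12 embryos; colours give the genotype and shapes the title number. H2bc18 rises along the axis to 11.2 CPM, H4c6 and H3c10 are highest in knockout 4, and H2bc21, H2bc27 and H4c9 are highest in embryos with 1.47% or less.

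H2B members lay at both ends. Beside H2bc18, H2bc14 had a slope of 0.93 ± 0.29 and H2bc7 of 0.87 ± 0.42. At the other end stood H2bc26 at -0.37 ± 0.49, H2bc21 at -0.36 ± 0.22, H2bc27 at -0.04 ± 0.40 and H2bc4 at 0.17 ± 0.29. H2bc21, the most abundant member, had 12.3, 13.8, 10.6 and 12.8 CPM in wild-type, 12.3, 33.9, 11.9 and 10.3 in heterozygous and 9.88, 8.92, 14.4 and 5.41 in knockout embryos. Heterozygous 2 was far above every other embryo, and knockout 4 was the lowest. Of the H2A genes, H2ac25 had the smallest slope, -0.08 ± 0.33, and H2ac12 the largest, 0.93 ± 0.46.

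**Figure D4:**
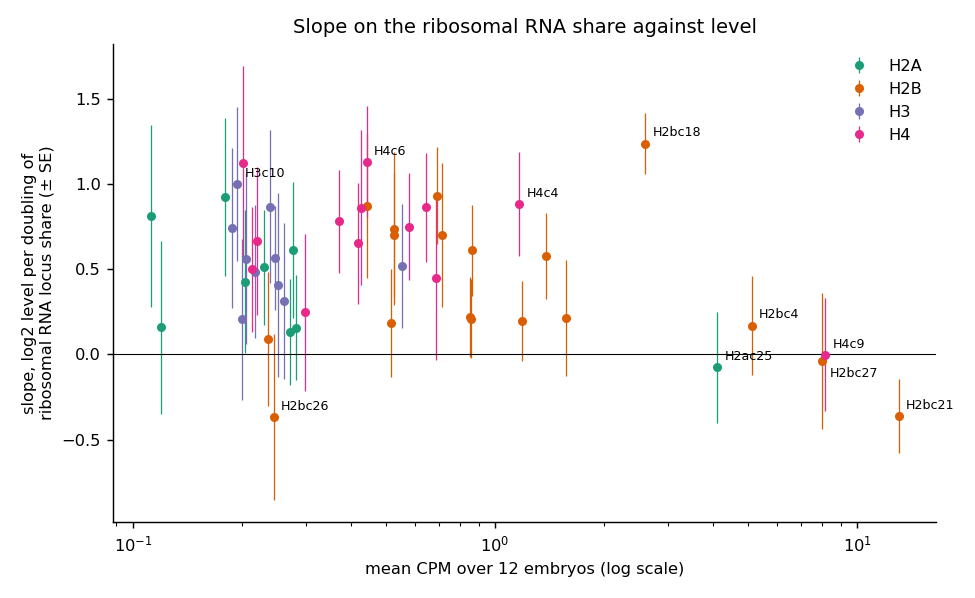
Slope on the ribosomal RNA locus share (vertical axis, log2 level per doubling, ± SE) against mean CPM over 12 embryos (horizontal axis, log scale) for the 50 members tested, coloured by type. The 4 members with the highest means, H2bc21, H4c9, H2bc27 and H2bc4, have slopes from -0.36 to 0.17, and H2bc18 has 1.24.

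A short list held genes described with polyadenylated transcripts. Of that list, H2bc21, H2bc4, H2bc12, H4c8 and the linker gene H1f2 were tested, with a median slope of 0.17 on the locus share, against 0.54 over the members tested, and H4c8 highest at 0.86; H2ac6 had too few reads. H1f2 had 0.09 ± 0.32, whereas H1f1 had 1.003 ± 0.25, with an adjusted p of 0.583 by edgeR. H1f3, H1f4 and H1f5 had 0.67, 0.56 and 0.56. The 8 other untailed RNAs tested had a median of 1.29, from 0.22 for Rnu7, the U7 RNA of histone 3' end processing, to 1.997 for Rny1. Rn7sk, the RNA that holds P-TEFb inactive, had 1.30 ± 0.26, Rmrp, the RNA of RNase MRP, 1.40 ± 0.32, and the Y RNA Rny1 1.997 ± 0.24, the one called, with an adjusted p of 0.0147 by edgeR.

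Genes that act on histone mRNA or in S phase had median slopes near 0; their difference from the members was not tested. On the locus share, 0 of 16 genes of histone mRNA transcription and 3' end processing, 0 of 18 histone chaperones, 0 of 25 S phase genes and 0 of 10 mitosis genes were called, where 0.0337% of all genes were, with median slopes of -0.03, -0.05, -0.04 and -0.08. Slbp, which binds the stem-loop, had a slope of 0.01 ± 0.08. Among the polyadenylated variants, 0 of 11 were called, with a median of 0.01, and H3f3b, an H3.3 gene, had -0.05 ± 0.14.

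The title numbers were compared after their pattern had been seen, in 8 embryos: 4 of number 18 against 4 of number 4, each with 2 wild-type, 1 heterozygous and 1 knockout embryo, with genotype as a term. Each number is a single set of embryos, so the p-values of this contrast measure spread among embryos. They cannot speak for differences between title numbers in general. Summed members lay between 56.1 and 98.8 CPM in number 18 and between 34.9 and 46.4 in number 4, without overlap. H2A lay between 5.23 and 10.47 against 3.92 and 4.84, H2B between 39.1 and 59.5 against 23.4 and 29.2, and H3 between 2.43 and 3.60 against 0.988 and 2.06. H4 overlapped, at 8.41 to 25.3 against 6.65 to 13.1 CPM.

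In this comparison edgeR's quasi-likelihood test over 19983 genes called 5 of 48 members, all higher in number 18, against 5.09% of all genes called higher. At an unadjusted p under 0.05, 16 of 48 were higher, against 16% of all genes, and 45 of 48 estimates were positive, with a median of 0.89 against 0.03 over all genes. The contrast itself was wide: 1018 genes were called higher and 689 lower.

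The called members were H2bc27, H2bc7, H2bc4, H4c16 and H2ac25. H2bc27 had 18.1, 15.6, 16.3 and 7.59 CPM in the embryos of number 18 and 4.36, 4.05, 6.03 and 4.03 in those of number 4, a log2 difference of 1.58 ± 0.21 (SE, adjusted p = 0.00747, edgeR). H2bc4 had 10.3, 5.78, 7.66 and 6.91 against 2.49, 3.16, 3.01 and 3.88 CPM, a difference of 1.29 ± 0.23 (adjusted p = 0.0192, edgeR). For H2ac25, which overlaps Trim17, the difference was 0.98 ± 0.24, and for H2bc7 it was 2.58 ± 0.41. H4c16 had 3.59 ± 0.84, resting on 0.0299 and 0.0695 CPM in the wild-type embryos of number 4 and on 0 reads in heterozygous 4 and knockout 2. H2bc27 and H2ac25 lie in the same small cluster on chromosome 11, so that they are not independent examples.

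With the locus share as a covariate, 0 of 48 members were called and 42 of 48 estimates remained positive, with a median of 0.69; the adjusted p of H2bc27 was then 0.0582. On leaving out each embryo in turn, between 1 and 14 members were called. It was 1 without wild-type 4, heterozygous 1 or heterozygous 4, 2 without wild-type 3, 3 without wild-type 1 or 2, and 14 without knockout 2 or knockout 3. H2bc27 was called each time. Because genotype was a term, leaving out 1 of the 2 knockout or 2 heterozygous embryos also takes the other out of the comparison. The shares of all genes called in these fits are not given here, so their counts of members are not a result about histones.

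**Figure D5:**
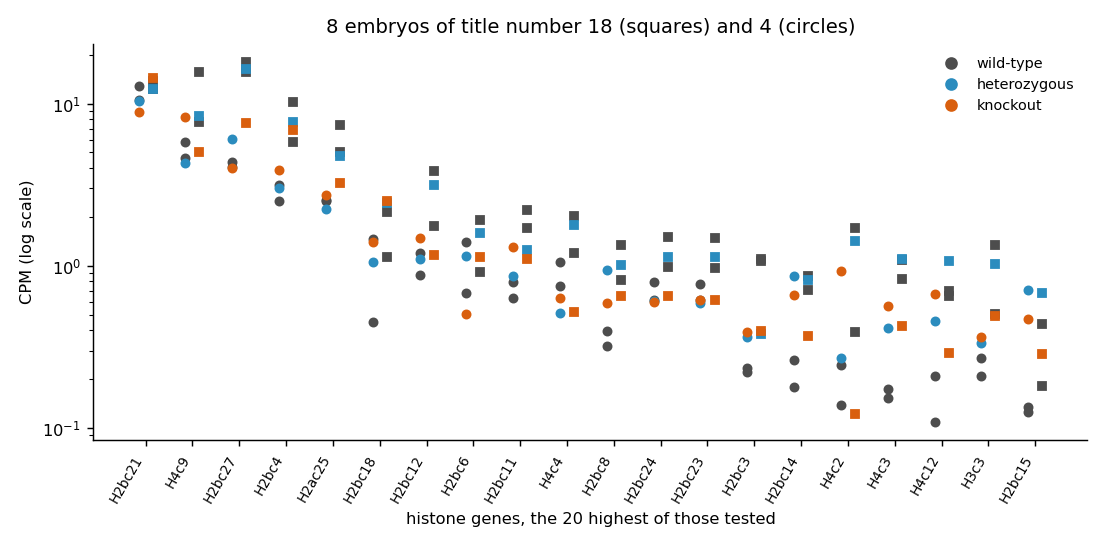
CPM (log scale) of the 20 highest members tested in the 8 embryos of title number 18 (squares) and 4 (circles), coloured by genotype; embryos at 0 are not drawn. For H2bc27 and H2bc4 every square lies above every circle, and for H4c9 and H4c2 the numbers overlap.

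Lists of genes that act on histones or in S phase were compared between the title numbers in the same fit, where 3.45% of all genes were called lower in number 18. Of 25 S phase genes, 1 was called lower and 0 higher in number 18, with a median of -0.20; the called gene was Pole, the catalytic subunit of DNA polymerase epsilon, at -0.73 ± 0.11 (adjusted p = 0.0103, edgeR). Of 18 histone chaperones, 1 was called lower, the FACT subunit Supt16 at -0.57 ± 0.13, with a median of -0.29. Of 16 genes of histone mRNA transcription and processing, 1 was called lower, Cstf2 at -0.41 ± 0.10, with a median of -0.18. Of the linker genes, H1f2 was called higher, at 1.28 ± 0.30.

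Summed markers of other cell types were set beside the genotypes and title numbers. Summed erythroid markers, 6 of 6 found, lay between 4583 and 16680 CPM in knockout embryos and between 15670 and 73680 in wild-type embryos, with overlap. Yolk sac endoderm markers, 6 of 6 found, lay between 125 and 4025 CPM in number 18 and between 23.9 and 131 in number 4, also with overlap. In number 18, knockout 3 had 4025 CPM and heterozygous 1 had 636, whereas wild-type 1 and 2 had 142 and 125. Decidua markers, 4 of 4 found, lay between 64.6 and 85.1 CPM in number 18 and between 35.99 and 57.1 in number 4. Of these, Dcn and Cryab were tested between the title numbers, with log2 differences of 0.94 ± 0.22 and 0.16 ± 0.15 (SE). Prl8a2 and Prl3c1 had too few reads to be tested, and whether the sum measures decidua was not tested. Over all 12 embryos the sum was highest in knockout 4, at 265 CPM, against 86.8 in knockout 1 and at most 85.9 in the others. The 5 trophoblast markers summed to 70.2 CPM in knockout 4, 2.49 in heterozygous 2 and at most 0.307 in the other 10 embryos, with Ctsq at 0 in all. Knockout 4 is also the library with the highest ribosomal RNA share, and heterozygous 2 the one with the highest summed histone level. The part of these markers in the histone levels was not tested. In whole embryos, fewer cells of a type and less RNA per cell cannot be told apart.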

How the data were processed

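The authors deposited estimated counts (expected counts) per gene, made with featureCounts 2.0.6 on the RefSeq annotation of GRCm39, per the file headers. Reads matching several places or genes added fractions, mates were counted singly and strand was not used. The role of DRAGEN, also listed in the submitters' processing notes, is not given in the sources used here.

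Counts were rounded, filtered with filterByExpr and TMM-scaled, and tested with edgeR 4.0.16 (R 4.3.3) with all 12 embryos in the fit, a mean per genotype and Benjamini-Hochberg adjustment over all genes. Standard errors are the log2 estimate divided by the root of its quasi-likelihood F. DESeq2 1.42.0, limma 3.58.1, other scalings, filters and covariates and left-out embryos were alternatives. A check of the test on simulated counts was run, and its outcome is not given here. No pair of libraries of a genotype agreed within sampling noise. Members and lists were chosen with earlier results of these data known. Genes named by rule are Mfsd12, the H1 genes, the 3 highest members per type and those described with polyadenylated transcripts. The rule also took those past the threshold and those with the largest or smallest slope of their type. Of each other list it took the 3 most abundant and any past the threshold. Other genes, among them H2bc14, H2bc11, H2ac11, H4c3, H3c8, Slbp and Rmrp, were named outside this rule.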

Additional observations from a re-analysis of the deposited data

Results flagged for a closer look

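In 87 groups of 4 embryos (the summed types and the named members, by genotype), 6 held an embryo whose gap to the nearest other exceeded Dixon's critical share of the group's range for 4 values; chance gives about 1 in 20. Heterozygous 2 stood apart for H2bc21 at 33.9 CPM (the other 3 at 10.3 to 12.3), for H2bc26 at 0.824 CPM (0.203 to 0.238) and for H3c15 at 0.261 CPM (0.0169 to 0.0583). Knockout 4 stood apart for H4c4 at 2.85 CPM (0.519 to 0.713) and for H4c6 at 1.60 CPM (0.269 to 0.305). Wild-type 1 stood apart for H4c2 at 1.72 CPM (0.139 to 0.389).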

How the results depend on the processing

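The 0 members called in each genotype comparison stayed 0 under every alternative run. With the 5S share, DESeq2 and the fit without a genotype term each called 1 member. For this and the counts of called members that follow, the shares of all genes called are not given here. These counts therefore do not speak for the members in particular. With the locus share the count was 0 with library totals alone, with ribosomal RNA rows left out, with the title number in place of genotype, without each embryo in turn (0 to 0), and without knockout 4 and heterozygous 2 together. Between title numbers it was 19 with voom, 3 with a mean CPM of 1 or more, 0 with the locus share as covariate, and 1 to 14 without 1 embryo. The median over members of knockout against wild-type, 0.29, became -0.27 with a mean CPM of 1 or more (10 members left), -0.30 and -0.27 with the 5S and locus covariates, -0.039 with the title number as a block, -0.19 without knockout 4 and heterozygous 2, and -0.16 to 0.71 without 1 embryo; -0.16 was without knockout 4. For knockout against heterozygous, 0.04 became -0.35, -0.79, -0.65, -0.52 and -0.13 in the same order, -0.034 with the compared genotypes alone, and -0.36 to 0.19. For heterozygous against wild-type, 0.11 became -0.10, -0.19 without both libraries, and -0.18 to 0.47. With the title number in place of genotype, slopes turned negative on the locus share for H2bc14 (-0.031), H2bc6 (-0.051), H2bc8 (-0.41), H3c10 (-0.31), H3c6 (-1.69) and H4c4 (-0.26), and on the 5S share for H2bc15 (-0.15), H2bc7 (-0.58), H4c14 (-0.26) and H4c4 (-0.23); the medians became -0.27 and -0.022. Knockout 4 and heterozygous 3, each alone in its title number, had no part in those title-number slopes. The 5S slope of H2ac25 became 0.41 without knockout 4 and heterozygous 2. Of 3609 single-gene values, 227 others changed sign with an unadjusted p of 0.05 or more in both fits. The r of summed members was 0.15 to 0.56 with the 5S share and 0.15 to 0.50 with the locus share without 1 embryo, highest without heterozygous 2, and -0.016 with mt-Rnr1 and mt-Rnr2. The cause of these changes was not tested. A row named Rn45s was not used here, so the planned fits on it were not run. The title number is the one number that genotypes share, and the fit with it as a block called 0 members in each genotype comparison. Most members rest on under 100 reads per embryo, which limits single-gene calls.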
